A study of Arabidopsis thaliana with 32 samples.

Results

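In this time course of Arabidopsis thaliana seedlings, the second day under an unchanged light regime was compared with the first. The members are the 16 long-day libraries of the 32 in the series. The 8 taken at 26 to 47 h were set against the 8 taken at 2 to 23 h, and each was paired with the library of the same hour of the cycle. All seedlings were wild-type Columbia (Col-0), raised on Murashige and Skoog plates for 8 days with 16 h of light and 8 h of dark at 24 °C, after which RNA of seedlings was sampled every 3 h. The long-day seedlings stayed in that regime, while the other 16 libraries, used here only for contrast, come from seedlings moved to continuous light. There was 1 library per time point. Whether these were grown as separate cultures is not stated, and each p-value below reflects no more than library-to-library spread, part of which may be technical. The second cycle is also the later one, so seedling age and any difference in how the 2 sets of libraries were collected or prepared cannot be told apart.

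Seedlings first live on storage proteins and oil laid down in the embryo. The oil is turned into sugar through beta-oxidation, the glyoxylate cycle and gluconeogenesis, and most of these reserves are used up in the first days after germination, before the ages sampled here. In the days sampled, leaves grow out by cell division and expansion, and stomata are formed from a dedicated lineage in the epidermis.

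Before any gene is considered, the libraries of the cycles stood apart in one respect. The deposited values are FPKM (fragments per kilobase of transcript, scaled to the reads of the library) of annotated transcripts and of transcripts assembled from the reads. In long days 381 transcripts were at 0 in all 8 first-cycle libraries and above 0 in all 8 second-cycle libraries, and 15 showed the reverse. In continuous light 0 transcripts did either. Assembled transcripts that stretch across several loci held 2.29 to 2.54% of all FPKM in the first cycle and 3.24 to 4.80% in the second. Those assigned to 1 locus, whatever the span they cover, held 7.96 to 9.12% and then 9.64 to 11.1%. The ranges of the cycles do not overlap in either class. Counts from annotated transcripts alone are therefore given beside those from locus sums for many of the lists below. Libraries correlated across transcripts at 0.890 to 0.911 within the first cycle, 0.869 to 0.891 within the second and 0.844 to 0.872 between them (Pearson's r of log2(FPKM + 1), a description, since the points share the same transcripts). Total FPKM was 570086 to 583568 in the first cycle and 569534 to 587307 in the second. FPKM files give no read counts, so the depth behind each value is unknown. The label of seedling tissue was checked against markers. Of 24 root markers 20 had a mean of at least 1 FPKM, light-harvesting transcripts summed to 7575 to 27871 FPKM in the first cycle, and 0 of 16 matched floral and pollen markers reached that mean.

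**Figure D1:**
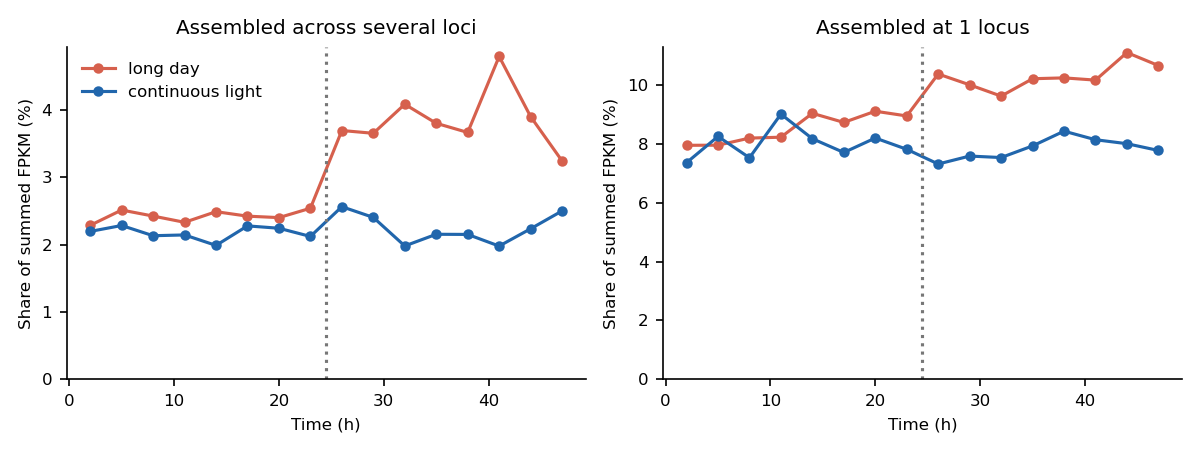
Share of all FPKM (y axis, %) held by assembled transcripts that stretch across several loci (left) and by those at 1 locus (right), against time in h; each point is 1 library, orange for long day and blue for continuous light, and the dotted line parts the cycles. Long-day libraries of the second cycle all lie above those of the first (3.24 to 4.80% against 2.29 to 2.54%, left), whereas those in continuous light overlap.

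Averaged over the 16 libraries, 18803 genes reached 1 FPKM, and 3111 of them differed between the cycles (limma, adjusted p under 0.05), which is 16.5% of those tested. In the second cycle 1659 were higher (8.82%) and 1452 lower (7.72%). With FPKM as deposited, not centred on each library's median, the larger number lay on the other side, with 1280 higher and 1604 lower. The median change over all genes was 0.02 on the log2(FPKM + 1) scale, and the median size among the genes called was 0.34. Large changes were mostly falls: 263 genes fell and 73 rose by more than 2-fold. Of the 1659 that rose, 1235 also rose by annotated transcripts alone, and of the 1452 that fell, 953 also fell, while 70 and 8 passed the threshold in the opposite direction. When each hour pair was left out in turn, 1757 genes kept the call in all 8 fits.

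The seed genes had the lowest median change of the 33 lists tested. Among the genes that met the naming rule (a change of the same sign in 8 of 8 pairs, a mean of at least 5 FPKM and a locus of its own), the 12 with the largest falls included 5 of the seed list and several others known from seeds. All 12 also fell by annotated transcripts alone. The 2S albumin SESA5 had 2.31, 15.8 and 30.1 FPKM (lowest, median, highest) in the first cycle and 0.350, 1.59 and 6.53 in the second, a fall of 2.32 ± 0.33 on the log2 scale (SE, 8 pairs, adjusted p = 0.00245). EM1, a late-embryogenesis-abundant (LEA) protein gene, went from 33.7, 144 and 204 FPKM to 10.4, 29.2 and 59.2 (log2 change -2.26 ± 0.37, adjusted p = 0.00497). In both genes the ranges of the cycles overlapped: 17 h was the lowest library of the first cycle and 38 h the highest of the second. GEA6, also called EM6, another LEA gene, had 25.6, 51.5 and 59.9 FPKM and then 5.62, 10.8 and 23.3, with no overlap (log2 change -1.93 ± 0.25, adjusted p = 0.00186). For a gene that moved the same way in all 8 pairs, an exact two-sided sign-flip permutation test gives 0.00781, the smallest p it can give. The naming rule asks for 8 of 8 pairs, so this p is fixed by the choice of genes and adds no support.

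The promoters of these genes are shown because the members moved together. Each is 250 bases before the gene start in the RefSeq genome (TAIR10.1), on the gene's strand. The deposited files use TAIR10, and 99.9% of 32317 loci had the same start and end in both. Capitals mark an ABRE (ACGTGTC, abscisic acid response element), a G-box (CACGTG) or an RY element (CATGCA), each searched on both strands. The first 2 can overlap by up to 5 bases. SESA5 lies at chr5:22239188-22239437 (minus strand), OLEO1 at chr4:12900180-12900429 (plus), EM1 at chr3:19214472-19214721 (plus) and GEA6 at chr2:16780369-16780618 (minus).
SESA5: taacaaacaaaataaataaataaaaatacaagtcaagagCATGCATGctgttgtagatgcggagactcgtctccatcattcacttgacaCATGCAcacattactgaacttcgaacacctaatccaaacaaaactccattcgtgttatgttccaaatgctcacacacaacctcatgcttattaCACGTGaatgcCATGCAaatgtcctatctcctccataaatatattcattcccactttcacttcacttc
OLEO1: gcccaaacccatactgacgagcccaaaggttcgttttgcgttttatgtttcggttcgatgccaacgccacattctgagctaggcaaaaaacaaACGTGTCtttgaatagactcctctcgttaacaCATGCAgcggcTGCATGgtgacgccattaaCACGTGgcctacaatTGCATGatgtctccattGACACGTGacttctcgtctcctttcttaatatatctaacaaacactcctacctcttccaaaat
EM1: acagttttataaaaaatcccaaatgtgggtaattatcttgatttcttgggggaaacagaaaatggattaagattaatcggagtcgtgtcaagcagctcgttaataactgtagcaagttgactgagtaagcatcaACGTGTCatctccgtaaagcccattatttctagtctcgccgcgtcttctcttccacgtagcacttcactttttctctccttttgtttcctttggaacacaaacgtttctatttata
GEA6: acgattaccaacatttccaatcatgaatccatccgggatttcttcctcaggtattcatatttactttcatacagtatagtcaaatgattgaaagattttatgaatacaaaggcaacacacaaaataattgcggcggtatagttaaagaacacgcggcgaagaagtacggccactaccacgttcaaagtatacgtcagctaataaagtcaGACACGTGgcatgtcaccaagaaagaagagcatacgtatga

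Of the 16 tested seed-list promoters, 8 held a G-box, 6 an ABRE and 12 an RY element. Among all 18717 promoters of tested genes these shares were 7.64%, 4.44% and 7.73%. Promoters of the 263 genes that fell by more than 2-fold held them in 29.3%, 21.7% and 26.6%, and those of 1642 genes that rose in 5.79%, 3.11% and 8.47%. Other motifs searched were the evening element, P1BS, the W-box, site II and the DRE. Promoters of the 263 genes held these in 1.90%, 4.56%, 27.0%, 11.8% and 3.04%. Among all promoters the shares were 2.43%, 5.40%, 27.75%, 16.8% and 2.90%. A match is a description of the letters, and binding was not measured.

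Across the seed list (storage proteins, oil-body proteins and embryo regulators) 15 of 16 tested members fell and 0 rose, against 7.72% of all genes that fell. The list's median log2 change was -1.75, beside 0.02 over all genes, and 13 of 15 members tested also fell by annotated transcripts alone. CRA1, a 12S cruciferin and the most abundant member, had 604, 1119 and 1608 FPKM in the first cycle and 139, 267 and 759 in the second (log2 change -1.77 ± 0.25, adjusted p = 0.0024). Genes of oil-body proteins fell too: OLEO2, in a merged assembled gene, fell by 1.91, OLEO1 by 1.55, OLEO4 by 1.48 and OLEO3 by 1.19 on the log2 scale. ABI3, an embryo transcription factor that switches on such genes, fell by 1.1 ± 0.20 (adjusted p = 0.00769), but by annotated transcripts alone its adjusted p was 0.0646. Summed over the list, the lowest first-cycle library was at 17 h with 1155 FPKM and the other 7 had 1810 to 3398, while the second-cycle libraries had 308 at 44 h to 1439 at 47 h. These are bulk samples, so fewer cells of a type and less RNA per cell cannot be told apart. In continuous light the same list had a median log2 change of 0.77, with 5 members up and 0 down, where 9.05% of 18525 genes rose and 9.82% fell, and the difference between regimes passed the threshold for all 16 tested members.

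**Figure D2:**
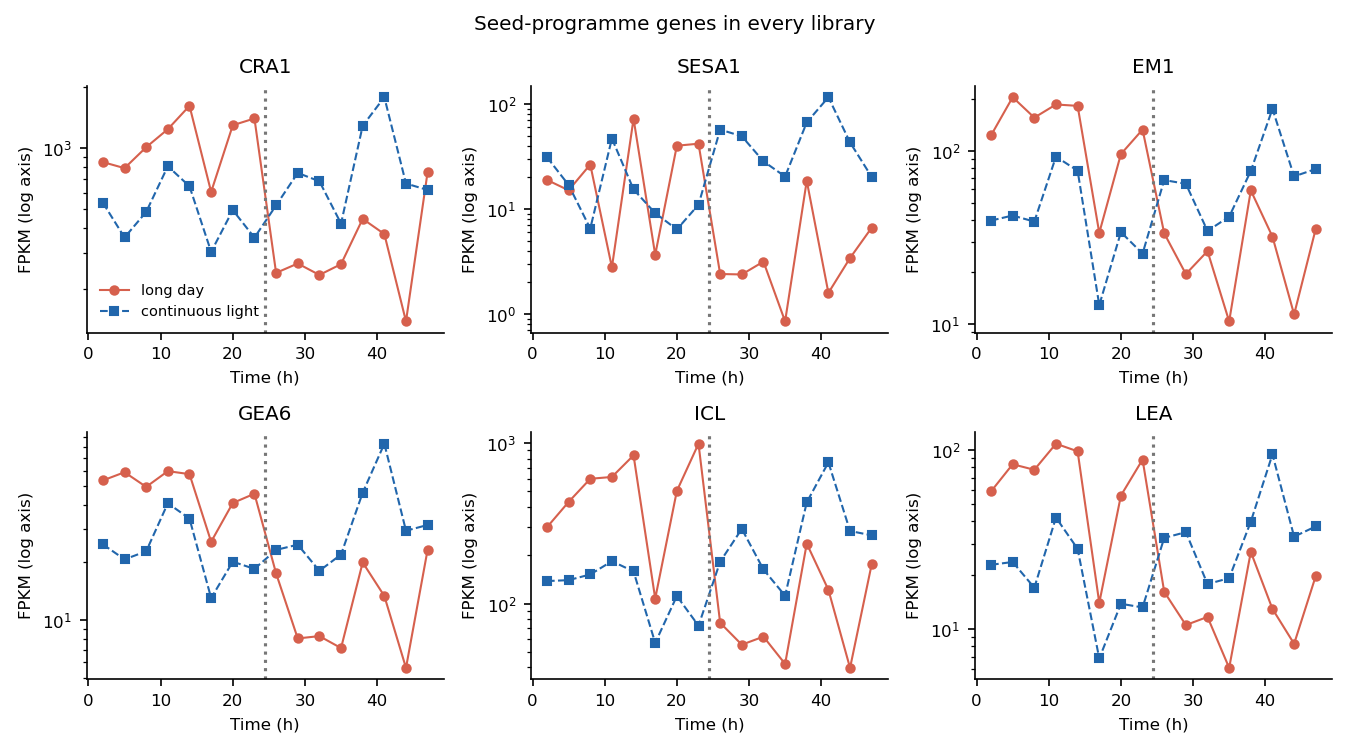
FPKM (log axis) against time in h for 6 genes of the seed programme and of reserve breakdown, one panel each; orange circles are the 16 long-day libraries and blue squares the 16 in continuous light, and the dotted line parts the cycles. In long days CRA1 runs at 604 to 1608 FPKM and then at 139 to 759, and 17 h is the lowest first-cycle library in all panels except SESA1, whose lowest is 11 h. In continuous light 17 h is also the lowest first-cycle library in all panels except SESA1, with CRA1 at 306 FPKM and ICL at 56.9.

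Several other named falls are of genes known from seeds or dehydration. LEA, which here is the dehydrin gene AT2G21490, went from 14, 80.4 and 108 FPKM to 6.07, 12.3 and 27 (log2 change -2.22 ± 0.34, adjusted p = 0.00355). PAP85, a vicilin-like storage protein gene, changed by -2.1, SESA1 by -2.11, ATOEP16-2, which encodes a plastid envelope pore protein of seeds, by -2.05, BETA-TIP, the aquaporin of protein storage vacuoles, by -1.82, and AtMT4b, a seed metallothionein gene, by -1.81 on the log2 scale (adjusted p of 0.0008 to 0.0045). SIP4, a protein kinase gene, changed by -1.99, CBSX4 by -1.95 and MRN1, the marneral synthase gene of a root triterpene cluster, by -1.93, and by -1.02 from annotated transcripts alone. Of these 12 genes, 10 differed between regimes, the exceptions being SIP4 (adjusted p = 0.0607) and MRN1 (0.161), whose value in continuous light was -1.03 without passing the threshold (adjusted p = 0.0697).

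Reserve breakdown fell with the seed list at its glyoxylate end. Of 18 genes tested for fatty acid breakdown and the glyoxylate cycle, 6 fell and 1 rose, with a list median of -0.04. Over all genes 7.72% fell and 8.82% rose. ICL, the isocitrate lyase gene that opens the glyoxylate bypass, had 107, 551 and 990 FPKM and then 39.8, 69.1 and 236 (log2 change -2.45 ± 0.40, adjusted p = 0.0046). It fell in 7 of 8 pairs and rose in 1, that of the low 17 h library. MLS, malate synthase, changed by -1.59 ± 0.28, CSY2, a peroxisomal citrate synthase, by -2.09 ± 0.15 with no overlap, and PCK1, which feeds gluconeogenesis, by -0.56 ± 0.07. ACX4, an acyl-CoA oxidase gene, was the one that rose, by 0.19, a call lost by annotated transcripts alone (adjusted p = 0.88). CSY2 belongs to an assembled gene that merges several loci, where the reads of neighbours may be mixed. In continuous light the list's median was 0.15, with 4 that rose and 1 that fell, where 9.05% of all genes rose and 9.82% fell. ICL changed there by 1.14 without passing the threshold (limma, adjusted p = 0.0755). The difference between regimes passed for 9 of the 18, beside 18.3% of all genes.

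Genes of abscisic acid, drought and cold fell: 12 of 25 tested, with 0 that rose and a median of -0.35. Of all genes 7.72% fell. By annotated transcripts alone 9 of 24 fell. LTI65 (RD29B) had 295, 464 and 720 FPKM and then 81.3, 168 and 276, with no overlap (log2 change -1.47 ± 0.21, adjusted p = 0.0027). The dehydrin gene ERD10 fell by 3.08 ± 0.75, KIN1 by 1.11 and RAB18 by 0.94. These genes all belong to assembled genes that merge several loci, and outside such genes 6 of 11 fell. Without the pairing by hour 2 of the 25 passed. In continuous light 0 of the 25 passed the threshold, with a list median of -0.04. The difference between regimes passed for 2 of the 25, beside 18.3% of all genes.

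Genes of copper enzymes fell, while several genes of metal uptake and transport rose. CSD1, the cytosolic copper/zinc superoxide dismutase at chromosome 1, 2827060 to 2829315, had 148, 122, 156, 215, 236, 180, 188 and 149 FPKM from 2 to 23 h, then 65.6, 48.2, 60.5, 98.8, 118, 88.0, 74.0 and 84.4 from 26 to 47 h. Every second-cycle library lay below every first-cycle one (log2 change -1.12 ± 0.06, adjusted p = 1.95e-05). The plastid enzyme CSD2 changed by -1.16 ± 0.08 (adjusted p = 4.97e-05) and their copper chaperone CCS by -0.80 ± 0.08 (adjusted p = 0.000478). Of the 15 tested genes of copper and zinc status, these 3 fell and 5 rose (4 and 4 by annotated transcripts alone), beside 7.72% and 8.82% of all genes. Among those that rose were COPT1, a copper importer, by 0.43 ± 0.06, the metal reductase gene FRO4 by 0.57 ± 0.11 and HMA2, a zinc pump gene, by 0.48 ± 0.08. Rises numbered 3 when the pair at 5, 14, 17 or 23 h was left out. In continuous light the log2 differences were 0.36 for CSD1, 0.39 for CSD2, 0.40 for CCS, -0.39 for COPT1 and -0.80 for FRO4, all past the threshold except CSD2 (adjusted p = 0.0934), and for these 5 genes the difference between regimes passed the threshold.

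Some root markers and aquaporins fell, while the medians of both lists stayed near that of all genes (-0.02 and -0.03 beside 0.02). The shares over all genes were 7.72% that fell and 8.82% that rose. Of 20 tested root markers 6 fell and 2 rose (5 and 2 by annotated transcripts alone), with 1 rise without the pair at 2, 5, 8, 17 or 23 h. PRP3, a proline-rich wall protein gene of root hairs, had 14.8, 24.1 and 33.1 FPKM and then 7.35, 10.3 and 14.5, with no overlap (log2 change -1.04 ± 0.16, adjusted p = 0.00326). The Casparian strip genes CASP5 and CASP4 fell by 0.70 and 0.47, the root hair expansin gene EXPA7 by 0.71 and SHV2 by 0.64. SHR and SCR, which pattern the root endodermis, rose by 0.18 and 0.16. Of 19 aquaporins 4 fell and 2 rose (4 and 3 by annotated transcripts alone), with 1 rise without the pair at 2, 5, 8, 17 or 20 h. TIP2;3 went from 41, 50 and 81.9 FPKM to 10.3, 22.5 and 31 (log2 change -1.30 ± 0.17, adjusted p = 0.00181), PIP2;4 changed by -0.81 and TIP2;2 by -0.71. Summed FPKM of the root list was 109 to 148 in the first cycle and 106 to 124 in the second, and its part in these results was not tested. In continuous light PRP3 changed by -1.19 and TIP2;3 by -1.13, and neither differed between regimes past the threshold (adjusted p of 0.745 and 0.644).

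Genes of cell division rose slightly. Of 35 tested genes of the cell cycle and DNA replication, 12 rose and 0 fell, against 8.82% of all genes that rose, and the list's median was 0.19. TOPII, a DNA topoisomerase gene, had 8.64, 10.5 and 14.9 FPKM and then 12, 14.2 and 20.4 (log2 change 0.44 ± 0.08, adjusted p = 0.00782; adjusted p = 0.403 by annotated transcripts alone). The cyclin gene CYCA1;1 rose by 0.38, HIK, a kinesin of cell plate formation, by 0.37 and the mitotic kinase gene CDKB2;2 by 0.35. These are small changes whose cycles overlapped. Calls were 4 without the pair at 8, 11 or 20 h and 14 without that at 23 h, 2 passed without the pairing by hour, and 9 of the 12 genes also rose by annotated transcripts alone.

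The stomatal lineage showed the highest median of all lists, 0.33, with 6 of 13 tested members up and 0 down (5 of 12 by annotated transcripts alone). Among all genes 8.82% rose and 7.72% fell. POLAR, which marks polarity in dividing lineage cells, had 2.63, 3.99 and 5.92 FPKM and then 4.53, 6.44 and 8.08 (log2 change 0.60 ± 0.12, adjusted p = 0.00977). FMA (FAMA), the guard cell fate regulator, rose by 0.52 ± 0.09, the receptor gene TMM by 0.48 ± 0.09, the peptide gene EPF2 by 0.48 ± 0.14, BASL by 0.47 ± 0.13 and SPCH, which starts the lineage, by 0.33 ± 0.10. Several members are at 2 to 10 FPKM, and 3 passed the threshold without the pair at 5, 8, 11, 17 or 20 h, as against 6 with all pairs. In continuous light the list's median was -0.19 and 4 members fell. In the epidermis list 4 of 13 rose and 1 fell, among them PDF1 by 0.59 and ATML1, a regulator of epidermal identity, by 0.38. By annotated transcripts alone 1 of 12 rose, without the pair at 2 h 2 rose, and without the pairing by hour 0.

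**Figure D3:**
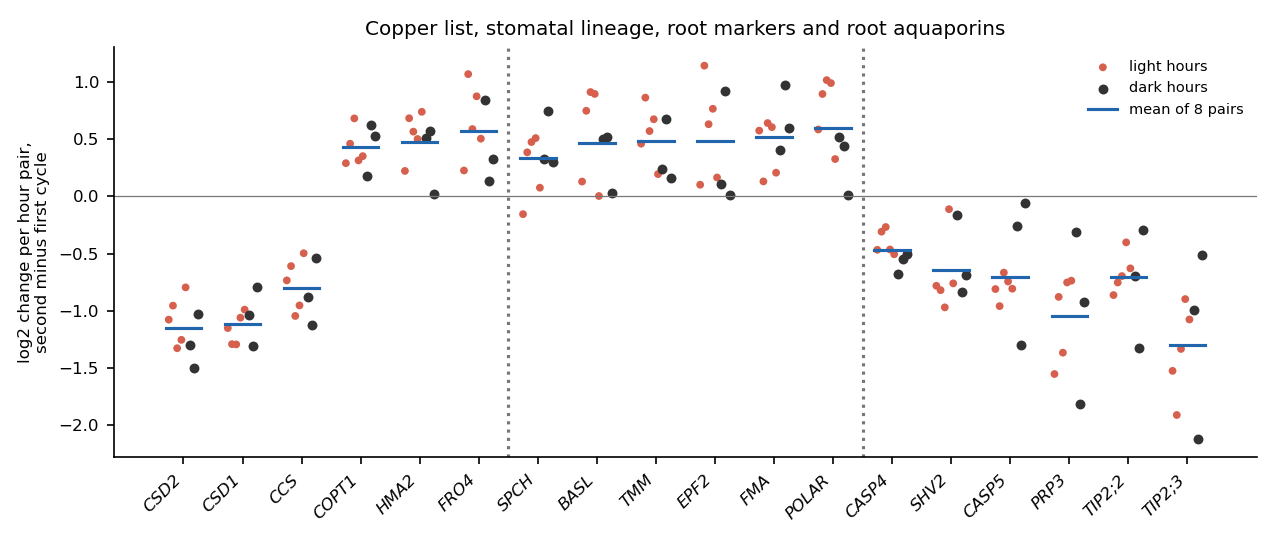
log2 change from the first to the second long-day cycle (y axis) for each of the 8 hour pairs, for 6 genes each of the copper list (left), the stomatal lineage (middle) and the root markers with the root aquaporins TIP2;2 and TIP2;3 (right); orange points are light hours, dark points dark hours and blue bars the mean of 8 pairs. All 8 points of CSD1, CSD2 and CCS lie below 0, as do those of the 6 genes on the right. All 8 of COPT1, HMA2 and FRO4 lie above 0, as do those of each stomatal gene except SPCH, which is at -0.16 at 2 h.

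Among the named rises the values depend more on the transcript models. Of the 12 genes with the largest rises, 6 also rose by annotated transcripts alone, 4 had the opposite sign there and 2 were not tested. The 6 are GSTF14, UGT88A1, APL, GER3, PRP2 and ABCB19. GSTF14, a glutathione transferase gene, went from 0.255, 1.07 and 5.32 FPKM to 5.36, 7.61 and 18 with no overlap (log2 change 2.06 ± 0.15, adjusted p = 8.04e-05). GER3, a germin-like gene, rose by 1.14 ± 0.17 and PRP2, a proline-rich wall protein gene, by 1.04 ± 0.09. ABCB19, an auxin transporter gene, rose by 1.15 ± 0.18, but by 0.22 from annotated transcripts. UGT88A1, a glycosyltransferase gene, rose by 2.1 ± 0.52 but lost the call without 3 of the hour pairs, and APL, a phloem identity gene, by 1.32 ± 0.34 but without 5 of them. WRKY11 rose by 1.63, CPN20, a plastid co-chaperonin gene, by 1.26, GHS1, a plastid ribosomal protein gene, by 1.25 and XTH32, a xyloglucan enzyme gene, by 1.17, whereas annotated transcripts alone gave -2.70, -2.42, -2.27 and -0.67. 2A6 (1.59) and LpxC2 (1.15) had too little annotated signal to be tested.

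Metabolic and nutrient genes moved in both directions. Their counts stand beside 8.82% of all genes that rose and 7.72% that fell. Of 20 tested genes induced by darkness or sugar starvation 9 rose and 0 fell (7 and 0 by annotated transcripts alone), with a median of 0.23: ASN1, an asparagine synthetase gene, had 27.9, 107 and 146 FPKM and then 64.9, 154 and 207 (log2 change 0.64 ± 0.12, adjusted p = 0.0098), and KMD4 rose by 0.83. Without the pair at 2 h 3 passed, and without the pairing by hour 1. Of 21 nitrogen genes 7 rose and 1 fell (5 and 0 by annotated transcripts alone), among them GSR 1, a glutamine synthetase gene, by 0.81 (in a merged assembled gene) and WR3, which encodes a nitrate transport partner, by 0.70, and 2 rose without the pair at 20 h and 1 without the pairing by hour. Of 29 starch genes 4 fell and 1 rose (3 and 1 by annotated transcripts alone), with 2 falls without the pair at 8, 14, 20 or 23 h. APL3, a subunit of ADP-glucose pyrophosphorylase, fell by 0.93 ± 0.17, and CT-BMY, a plastid beta-amylase of starch breakdown, rose by 0.55 ± 0.13. IPS1, a non-coding RNA of phosphate starvation, went from 7.53, 9.01 and 13.8 FPKM to 1.27, 2.35 and 5.34, with no overlap (log2 change -1.55 ± 0.15, adjusted p = 0.000437), and the phosphate transporter gene PHT1;1 rose by 0.63 ± 0.09. In the phosphate list 3 of 19 rose and 3 fell, with 1 rise without the pair at 5 or 8 h. Of 19 iron genes 4 rose, led by VTL5, a vacuolar iron transporter-like gene, by 0.94 ± 0.11, and FER2, the ferritin gene known from seeds, fell by 1.16 ± 0.18 in a merged assembled gene. The 4 rises became 2 without the pair at 8, 14 or 20 h and 1 without the pairing by hour.

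Defence and secondary metabolism gave mixed lists. TGG2 and TGG1, the myrosinases that release glucosinolate products, rose by 1.02 ± 0.13 and 0.70 ± 0.10, and both changed the other way in continuous light (-0.65 and -0.46, adjusted p of the difference 1.34e-05 and 5.93e-06). For TGG1 the call was lost by annotated transcripts alone (adjusted p = 0.331). MAM1, which extends the side chains of aliphatic glucosinolates, fell by 1.77 ± 0.12 but belongs to a merged assembled gene. Of 26 glucosinolate genes 5 rose and 4 fell, or 3 and 2 by annotated transcripts alone and 2 and 1 without the pairing by hour. PAD3 and CYP71A13, which make the phytoalexin camalexin, fell by 1.05 and 1.4, while WRKY70 rose by 0.63, PAD4 by 0.32 and EDS1 by 0.21, so that 3 rose and 3 fell of 14 salicylate defence genes. There 1 fell without the pair at 5, 8 or 20 h, and 0 rose without the pairing by hour. Of 18 jasmonate genes 3 fell and 1 rose, with VSP1, a vegetative storage protein gene, at -1.22 ± 0.13. Only 1 fell by annotated transcripts alone, as was so without the pair at 5, 8 or 14 h, and 0 rose without the pair at 2, 5, 8, 17 or 20 h. Among 18 flowering and phase-change genes SPL3, which promotes flowering and is held down by miR156 in young plants, rose by 0.93 ± 0.14 and the floral repressor genes TOE2 and MAF1 fell by 0.35 and 0.17, the latter without passing by annotated transcripts alone (adjusted p = 0.29). In that list 1 fell without the pair at 8 or 20 h. The counts of these and the remaining lists stand beside 8.82% of all genes that rose and 7.72% that fell. Of 28 genes of growth hormones and elongation 5 rose and 0 fell, which became 3 and 1 by annotated transcripts alone and 0 and 0 without the pairing by hour. Of 14 senescence genes 4 fell and 0 rose, with 3 falls by annotated transcripts alone, 2 without the pair at 5, 14 or 20 h and 1 without the pairing by hour. Secondary wall (19 tested), phloem (12) and cleavage and polyadenylation (20) had 2 rises each and 0 falls, and SR splicing factors (20) and sulfur (13) 1 each. By annotated transcripts alone secondary wall and cleavage had 1 rise each. The SR list also had 1 there, but 0 of its genes rose both ways. Of 20 flavonoid genes 2 fell, and 1 of these also fell by annotated transcripts alone. Of 16 heat genes 2 rose and 2 fell (1 and 2 by annotated transcripts alone), and of 15 meristem genes 1 rose and 1 fell (1 and 0). In each of these small counts, from secondary wall to meristem, leaving out some of the hour pairs took away at least 1 call, except for the fall in the meristem list.

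**Figure D4:**
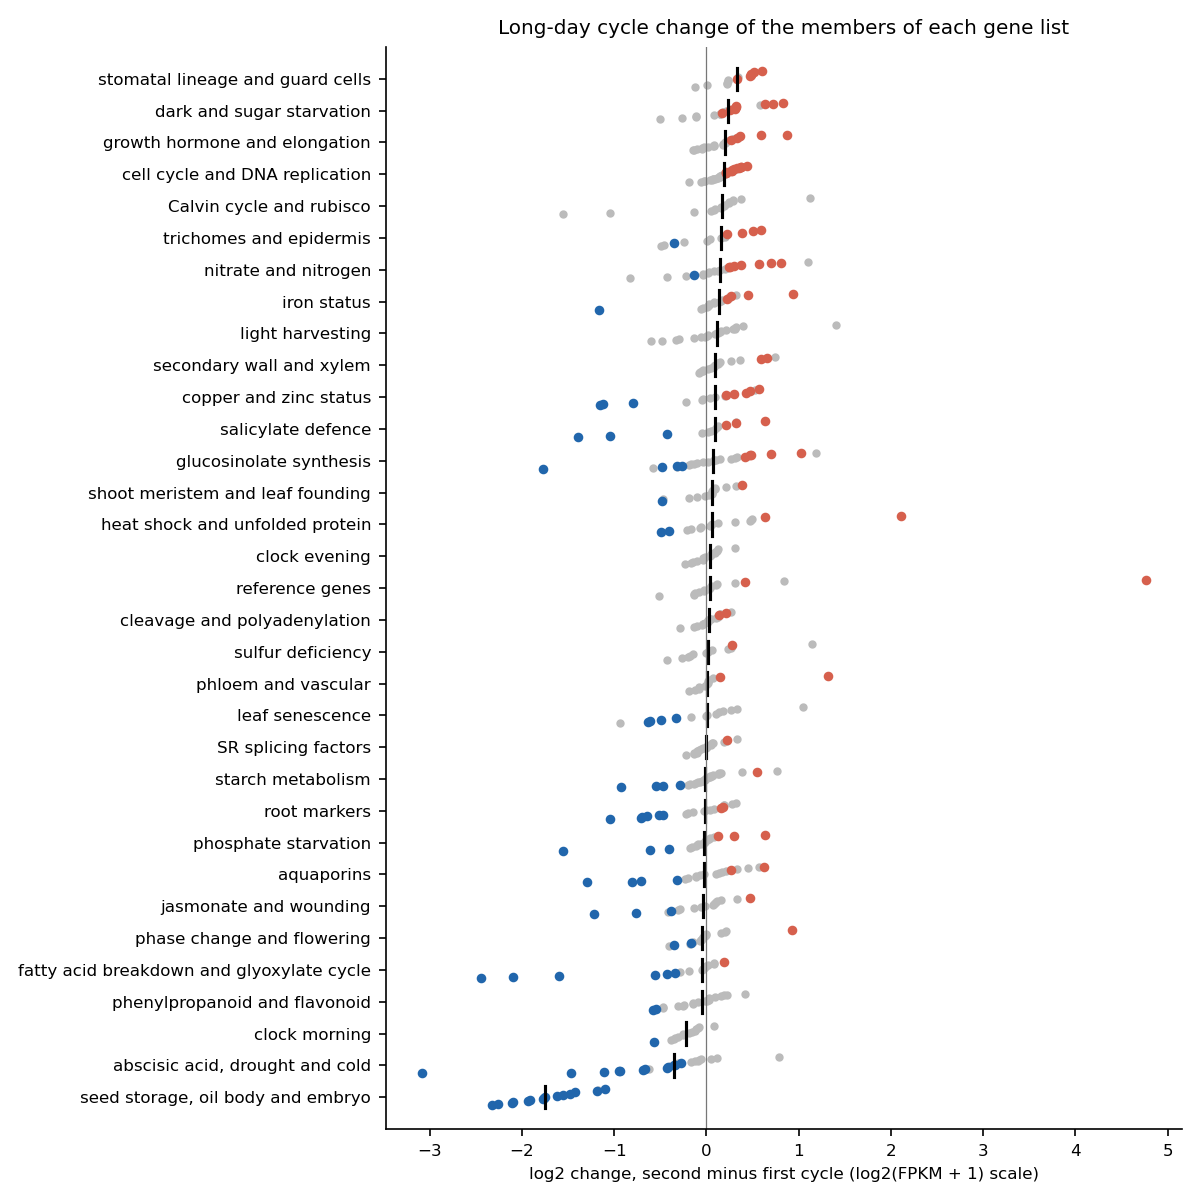
log2 change from the first to the second long-day cycle (x axis, log2(FPKM + 1) scale) of each tested gene in 33 lists (y axis, ordered by median); grey points did not pass the threshold, orange ones rose, blue ones fell, and black bars are list medians. The seed list lies apart with a median of -1.75, the stomatal list has the highest median (0.33), and TUB4 stands out at 4.76.

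The photosynthetic and clock genes gave few calls. Among 21 light-harvesting genes 0 were called, among 16 of the Calvin cycle 0, and among 15 evening clock genes 0 (smallest p in the lists 0.0297, 0.0132 and 0.00863, unadjusted). By annotated transcripts alone 3 evening genes passed, ZTL (0.14) and ELF3 (0.15) upward and COL9 (-2.63) downward, and so did the morning gene CCA1 (-1.16). Of 14 morning clock genes 1 was called, LNK4, which fell by 0.57 in a merged assembled gene, and which lost the call by annotated transcripts alone (adjusted p = 0.078). By locus sums 0 morning genes were called without the pair at 20 or 23 h or without the pairing by hour. Of the 14 morning genes 13 had a change below 0, with a list median of -0.22 beside 0.02 over all genes. A p that misses the threshold does not show equal levels: without the pair at 17 h, 3 Calvin cycle genes, 2 evening clock genes and 1 light-harvesting gene passed. Light-harvesting transcripts summed to 27871, 22203 and 21781 FPKM at 5, 8 and 11 h, then 36243, 34842 and 34850 at 29, 32 and 35 h. Their sum was also higher at 47 h than at 23 h, but at 26, 38, 41 and 44 h it was lower than at the same hours of the first cycle. These sums were not tested. In the reference genes TUB4, a beta-tubulin gene, rose by 4.76 ± 0.98 in a merged assembled gene. Its first-cycle libraries split, with 119.7 FPKM at 2 h, 185.9 at 17 h and 0.0501 to 2.40 in the other 6, against 100.5 to 229.7 in the second cycle, and 1 of 8 pairs fell. ACT7, an actin gene, rose by 0.41 by locus sums and fell by 7.62 by annotated transcripts alone.

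No difference in daily rhythm passed the threshold. A test of the 24 h cosine and sine between cycles called 0 of 18803 genes (limma F test, 480 at an unadjusted p under 0.05, and 0 by annotated transcripts alone). Among 29 clock genes, 22 had an amplitude of at least 1 on the log2 scale in both cycles. In absolute terms their fitted peaks differed by 0.0228 to 0.939 h, with a median of 0.267 h. Most peaked earlier in the second cycle, while PRR5 (0.68 h), ELF4 (0.22 h) and BOA (0.10 h) peaked later. A shared shift was not tested. The ratio of amplitudes, second over first, ran from 0.820 to 1.52 with a median of 1.1. LHY, a morning repressor of the clock, peaked at 1.68 ± 0.28 h and then 1.04 ± 0.25 h (SE), with amplitudes of 2.93 ± 0.22 and 3.34 ± 0.22. CCA1, its partner, peaked at 3.86 ± 0.63 and 3.26 ± 0.57 h. GI peaked at 9.19 ± 0.36 and 9.14 ± 0.33 h, TOC1 at 15.6 ± 0.8 and 15.4 ± 0.7 h, and ELF4 at 14.7 ± 0.5 and 14.9 ± 0.5 h, differences smaller than their errors.

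**Figure D5:**
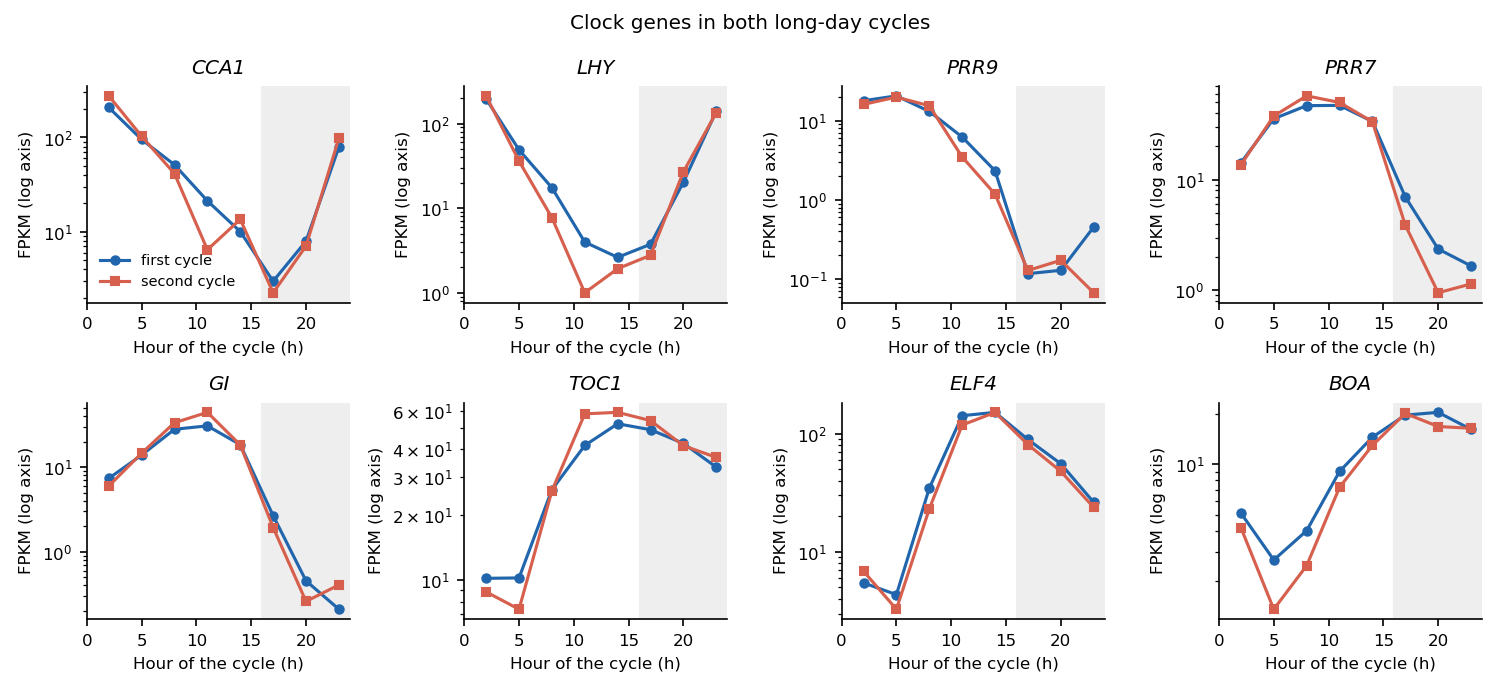
FPKM (log axis) against the hour of the cycle for 8 clock genes in the first (blue circles) and second (orange squares) long-day cycle, 1 library per point; grey marks the dark hours. LHY peaks at 1.68 h in the first cycle and 1.04 h in the second in the fit. Levels at the same hour can differ between the cycles in either direction. LHY had 17.5 FPKM at 8 h and 7.73 at 32 h, but 20.3 at 20 h and 26.9 at 44 h. Differences at single hours were not tested.

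The change between cycles was tested for a difference between dark and light hours in the same fit. It called 3 of 18803 genes (0.016%; 0.00532% higher in the dark hours and 0.0106% lower), with 962 at an unadjusted p under 0.05. They are HTB9, a histone H2B gene, AT3G06700 and ATLIG4, a DNA ligase gene, and all 3 belong to merged assembled genes. HTB9 changed by -6.63 in the 3 dark pairs and by -0.53 in the 5 light pairs. Among genes outside merged loci none passed. Of those with a gene symbol and a mean of at least 5 FPKM, the clock-related gene RVE2 had the smallest p. It changed by 0.83 in the dark and -0.99 in the light hours (adjusted p = 0.768).

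The shares of isoforms within genes were compared too. Of 25305 isoforms 920 changed their share of the gene's FPKM (3.64%; 1.98% to a higher share in the second cycle and 1.66% to a lower one), in 510 loci, and 432 of these were assembled transcripts, of which 336 had a higher share in the second cycle. Without the 543 loci that hold a transcript at 0 throughout 1 cycle only, 326 of 24279 were called. GAD, a glutamate decarboxylase gene at chromosome 5, 5710910 to 5715075, had its annotated transcript at 76.6 to 118 FPKM in the first cycle and 1.69 to 4.33 in the second, while an assembled one that starts at 5709094 was at 0 and then at 82.9 to 115. HMGB2, a chromatin protein gene, gave 100% of its FPKM to the annotated transcript in every first-cycle library and 0.307 to 2.34% in the second. The assembled one that took its place is 687 bases long but spans 79688 bases of the genome, against 2149 for the annotated locus. Of 199 assembled transcripts at 1 locus that were at 0 throughout the first cycle only, 69.8% reached more than 1000 bases beyond the annotated locus, beside 13.2% of the 10432 others. SUS3, a sucrose synthase gene, NAP1;2, GRP9 and PRXR1 showed the same exchange in part or in full. Whether the RNA or the assembly differed was not tested.

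The tables of the regimes were assembled and scaled separately, so the regimes are compared only in their change between cycles. Here 3434 of 18804 genes differed in their change between cycles (18.3%; 10.1% higher and 8.2% lower in long days), and 2335 of them were called with the same sign by annotated transcripts alone. Among the 6 named genes of smallest p, ORP3C, IDD11, YSL6 and ELM1 rose by 0.83 to 0.90 in long days, and none kept that rise by annotated transcripts alone (-0.63, -1.36, -0.01 and -1). The other two, whose values hold by annotated transcripts alone, are CSD1, described above, and EPR1, which here is the proline-rich extensin-like gene AT2G27380. EPR1 had 19.1, 29.3 and 45.1 FPKM in the first cycle and 7.84, 12.4 and 24.9 in the second. It changed by -1.11 ± 0.19 in long days and by 1.94 ± 0.16 in continuous light, a difference of -3.06 ± 0.27 (adjusted p = 1.77e-06).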

How the data were processed

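FPKM per transcript was deposited by the authors in 1 table per light regime. The genome build is TAIR10 per the submitters' processing notes, and the sources used here do not name the aligner or assembler. FPKM carries no read counts. Values of annotated transcripts and of assembled transcripts at a single locus were summed per locus, and log2(FPKM + 1) was centred on each library's median. A transcript counted as at a single locus if its assembled gene held 1 annotated locus, however far it reached. In merged assembled genes it had to overlap only 1 of the loci, and those that overlapped several were left out. The HMGB2 model that spans 79688 bases is thus in the sum of its locus. Genes averaging 1 FPKM or more were fitted with limma 3.58.1 in R 4.3.3 with the hour of the cycle as a block (the labels give the hour, which pairs the libraries), an intensity trend and Benjamini-Hochberg adjustment over all genes. Fold changes on this scale understate those of low genes. Isoform usage was log2((isoform + 0.5)/(rest of the gene + 0.5)), for isoforms with a share of 5 to 95%. The script was tested on simulated data. Members and gene lists were chosen with earlier results of these data known. Named genes are the 12 largest rises and falls by the rule above, up to 4 called members of each list, and up to 6 by smallest p in the other comparisons; members beyond these, and the RY element, were chosen after their values were seen. Gene symbols come from RefSeq. Alternatives tried were other scalings, pseudocounts, filters and pairings, a linear slope, light or dark hours only, each hour pair left out, annotated transcripts only, and loci left out that merge several genes or hold a transcript at 0 throughout 1 cycle only.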

Additional observations from a re-analysis of the deposited data

Results flagged for a closer look

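A test for a library far from the other 7 of its cycle flagged 8 of 58 groups of 8 libraries. Its chance rate of about 1 in 20 holds for independent groups of like libraries. Here the 8 libraries come from 8 hours and several of the genes move together, so the count cannot be set against that rate. At 38 h SESA5 had 6.53 FPKM, SESA1 18.6 and PAP85 45.2, each high for the second cycle. In the first cycle GSTF14 had 5.32 FPKM at 11 h, 2A6 9.27 at 17 h, GHS1 16.0 at 14 h and ABCB19 19.1 at 2 h, and in the second GHS1 had 302 at 29 h.

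The change between cycles differed between regimes for 6 named genes. On the log2 scale, long day minus continuous light, the difference was -1.47 for CSD1, -3.06 for EPR1, 1.08 for ORP3C, 1.07 for IDD11, 0.92 for YSL6 and 1.06 for ELM1. By annotated transcripts alone it was -1.43 for CSD1, -3.02 for EPR1, -0.44 for ORP3C, -1.11 for IDD11, 0.10 for YSL6 and -0.75 for ELM1.

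Assembled transcripts across several loci, which no comparison here uses, held a median of 3.75% of FPKM in the second long-day cycle, against 2.42% in the first.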

How the results depend on the processing

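Without the block that pairs libraries by hour (no replicate block), 1179 genes changed between long-day cycles in place of 3111 (390 higher, 789 lower), 2019 in continuous light in place of 3496, and 1385 differed between regimes in place of 3434. With the 5 light-hour pairs only 1290 were called, with the 3 dark-hour pairs 37, and with a linear slope per day 2008; the cause was not tested, but fewer pairs enter the first 2. Isoform calls fell from 920 to 326 without loci that hold a transcript at 0 throughout 1 cycle only, a choice made after the data were seen. Leaving out each hour pair gave 2091 to 2836 genes in long days, 2172 to 3714 in continuous light, 2457 to 3205 between regimes, 2 to 8 for dark against light hours, 0 to 0 for the rhythm and 775 to 813 isoforms. The count in continuous light was 2172 without the pair at 23 h, 2266 at 8 h and 2308 at 20 h, and that for dark against light hours 8 without the pair at 17 h and 6 without that at 14 or 23 h. By annotated transcripts alone the direction turned for 14 of 118 named genes: WRKY11 (-2.70), CPN20 (-2.42), GHS1 (-2.27), XTH32 (-0.67), GSR2 (-0.0755), ROF2 (-0.43), XTH24 (-1.29), IRX1 (-0.24), RSZ22 (-0.15), ACT7 (-7.62), ORP3C (-0.63), IDD11 (-1.36), YSL6 (-0.00761) and ELM1 (-0.9995). No other alternative turned a called named gene. Other scalings, pseudocounts and filters kept each total within 1.5 times, but without centring 1280 genes were higher and 1604 lower in long days, in place of 1659 and 1452. With 1 library per time point and no read counts, small changes of low genes cannot be given a counting error.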
